A study of Mus musculus with 6 samples.

Results

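The genes described here encode the subunits of the mitochondrial respiratory chain and of ATP synthase, in injured mouse quadriceps muscle. They were chosen by symbol alone, as the listed genes with names of NADH dehydrogenase (Nduf a, b, c, s and v series), succinate dehydrogenase (Sdha to Sdhd), the cytochrome bc1 complex (Uqcr genes and Cyc1), cytochrome c oxidase (Cox4 to Cox8 series), ATP synthase (Atp5 series) and the protein-coding genes of the mitochondrial genome. This gave 95 genes of the 14016 listed. Of these, 82 are coded in the nucleus and 13 in the mitochondrion. Complex I holds 43 of the genes, complex II 4, complex III 10, complex IV 19 and complex V 19. The symbols are the older ones that the table uses, such as Atp5a1.

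Bulk RNA sequencing was done on muscle 7 days after volumetric muscle loss, a surgical removal of part of the quadriceps of both legs, with no implant. There were 3 WT samples, on a C57BL/6 background, and 3 samples labelled GATA-1 mutant. The mutant is the germline ΔdblGATA line, which lacks a pair of GATA sites in a Gata1 promoter and forms no eosinophils. The sources used here give female adult mice for the WT surgery and no separate age for the mutant, and every sample, WT included, came from injured muscle.

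The first 4 complexes pass electrons from NADH and succinate to oxygen, and complexes I, III and IV pump protons as they do so. ATP synthase, or complex V, lets the protons back and makes ATP. The mitochondrial genome codes for membrane-embedded core subunits of complexes I, III, IV and V, all other subunits are made from nuclear genes and imported, and complex II is nuclear throughout. Muscle fibres are rich in these complexes and use some subunit forms that other tissues use little.

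The value described is the authors' mean of log2 CPM (read counts scaled to a common library total) for each gene over the 6 samples, which the table gives without an error or a value per sample. It therefore describes WT and ΔdblGATA muscle together, and no difference between the genotypes was tested. Because longer transcripts yield more reads, levels of different genes were compared per kb, as the mean log2 CPM less the log2 of the length in kb of the longest coding transcript. A step of 1 on this scale is a 2-fold difference. The spread between samples is unknown, so neighbouring genes in any order given here cannot be told apart by a test, and a difference between genes under 1.5-fold is not described as one.

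Fibre genes dominated the tissue. All 7 skeletal muscle markers examined were in the top 10% of listed genes, between 10.56 (Myh2) and 14.65 (Myh4) mean log2 CPM. Macrophage markers were also listed for 3 of 4 genes, with Lyz2 at 9.12, Csf1r at 6.15 and Cd68 at 5.05 mean log2 CPM. None of the 4 eosinophil markers examined (Siglecf, Epx, Prg2, Ccr3) is among the genes analysed here. Of the heart markers, Myh6 was at -3.46, Tnni3 at -0.72 and Tnnt2, which regenerating muscle also makes, at 6.55 mean log2 CPM. In whole muscle, fewer cells of a type and less RNA per cell cannot be told apart.

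Respiratory chain transcripts were among the most abundant in the injured muscle. The median level of the 95 genes was 7.81 log2 CPM per kb, against 2.28 for all 13944 listed genes with a known transcript length, and 86 of the 95 lay in the top 10% of genes per kb. Back on the linear scale, they made up 14.5% of the summed mean CPM of all listed genes. The 13 mitochondrial genes alone made up 12.2%, and the 82 nuclear ones 2.36%.

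The mitochondrial genes stood above the nuclear ones per kb of the longest coding transcript, though the edges of the groups lay within 1.5-fold. The lowest mitochondrial gene was mt-Atp8, at 10.65 log2 CPM per kb, and the highest nuclear gene was Atp5b, the catalytic beta subunit of ATP synthase, at 10.17. The groups met under other lengths. Per kb of coding length, mt-Atp8 at 10.67 lay below Atp5e at 10.75 and Cox4i1 at 10.70, and without division by length mt-Atp8 at 8.36 and mt-Nd4l at 9.25 lay below Atp5b at 11.11. The mitochondrial median, 12.69, exceeded the nuclear median, 7.66, by 5.02 log2 units, a 32.6-fold difference. Within complexes the same gap was 21.8-fold in complex I, 39.8-fold in complex III, 54.7-fold in complex IV and 12.2-fold in complex V. The library selected poly(A) RNA, and mitochondrial and nuclear messages differ in their tails, so the size of this gap also carries the efficiency of selection, whose part was not tested.

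The nuclear genes lay close together. Of the 82, 54 (65.9%) were within 1 log2 unit of the nuclear median, 2 were over 2 log2 units above it (Atp5b and Cox4i1) and 9 were over 2 log2 units below it. Their transcripts were short, with a median of 891.5 nt against 3139 nt for all listed genes. Without dividing by length, the nuclear median was still 3.72 log2 units above that of all genes. They are spread over 19 chromosomes, with at most 9 on any of them, and 3 are X-linked.

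By complex, the nuclear medians per kb were 7.33 in complex I (36 genes), 7.60 in complex II (4 genes), 8.25 in complex III (9 genes), 8.29 in complex IV (16 genes) and 8.32 in complex V (17 genes). Complex I also ranked lowest under all 8 other ways of setting the level. Its median was within 1.5-fold of that of complex II with this length and under most of the others. With an assumed fragment taken off each transcript, complex I was at 7.74 and complex II at 7.78. The order of the others changed with the length used, and complex II had the highest median without division by length, at 8.31 log2 CPM. Complexes III, IV and V differed from each other by far less than the spread of their own members, whose interquartile ranges were 0.72, 1.32 and 1.30 log2 units.

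**Figure D1:**
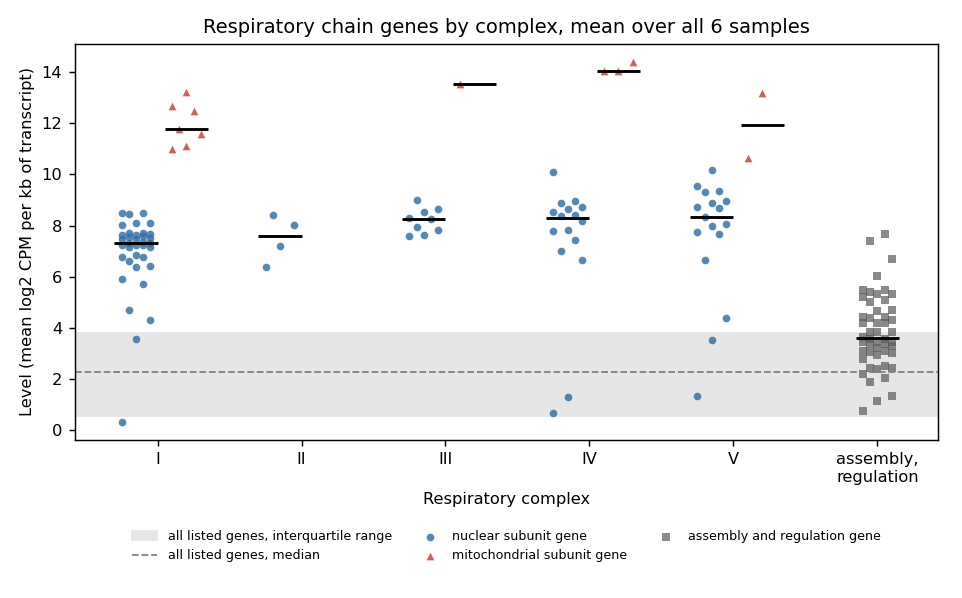
Level of each respiratory chain gene, as mean log2 CPM per kb of its longest coding transcript, by complex and by coding genome. Each point is 1 gene with no replicate error, black bars are medians of the points, the dashed line and grey band are the median (2.28) and interquartile range (0.53 to 3.78) of all listed genes, and squares are the 50 listed assembly and regulation genes. With this length the 13 mitochondrial genes lie above the highest nuclear gene, Atp5b at 10.17, which does not hold per kb of coding length or without division by length, and a few nuclear genes, Ndufa9 at 0.32 and Cox6b2 at 0.67 among them, lie far below the rest of their complex.

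**Figure D2:**
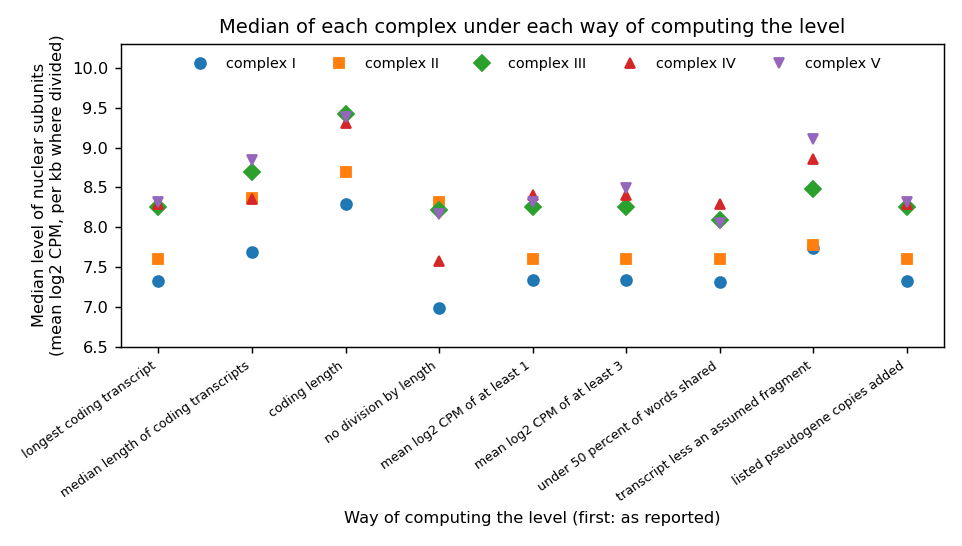
Median level of the nuclear genes of each complex (log2 CPM, per kb where divided by length) under the length used in the text and under the 8 alternatives. Complex I has the lowest median in each, from 6.98 without division by length to 8.29 per kb of coding length, while the order of complexes II to V changes. In most of them its median is within 1.5-fold of that of complex II.

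The mitochondrial genes differed among themselves by 3.76 log2 units per kb, although 12 of the 13 are read from the same strand and are cut from long shared precursors. The 3 cytochrome c oxidase genes had the highest values per kb, though mt-Co3 was within 1.5-fold of mt-Cytb. The catalytic subunit gene mt-Co1 stood at 14.41 log2 CPM per kb, mt-Co2, which takes electrons from cytochrome c, at 14.06, and mt-Co3 at 14.04. By mean log2 CPM, mt-Co1 was first of all listed genes, at 15.03. The genes mt-Cytb at 13.76, mt-Co3 at 13.68 and mt-Co2 at 13.51 were also among the 10 highest, and lay within 1.5-fold of each other on that scale.

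Cytochrome b of complex III (mt-Cytb) stood at 13.56 log2 CPM per kb and mt-Atp6, the proton channel subunit of ATP synthase, at 13.20. The 7 genes of complex I had a median of 11.77, against 13.80 for the 6 others. Among them mt-Nd1 was highest at 13.24, followed by mt-Nd4 at 12.69, mt-Nd2 at 12.49, mt-Nd5 at 11.77 and mt-Nd3 at 11.58. The lowest were mt-Nd6 at 11.12, the only one of the 13 on the other strand, and mt-Nd4l at 11.00. The median of mt-Atp8 and mt-Atp6 in complex V, 11.92, was within 1.5-fold of that of complex I, and without division by length it was lower, at 10.50 against 12.54 log2 CPM.

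Among the low values, those of mt-Atp8 and mt-Nd4l fall on genes that overlap a higher neighbour on the same strand. The gene mt-Nd6 (chrM:13552-14070, minus strand) overlaps the end of mt-Nd5 (chrM:11742-13565, plus strand), which was at 11.77 against 11.12. It lies beside the higher mt-Cytb without overlap, as mt-Nd3 does beside the higher mt-Co3. The genes mt-Atp8 (chrM:7766-7969, GRCm38, plus strand) and mt-Atp6 (chrM:7927-8607) share 43 bases and are made as 1 messenger RNA, as are mt-Nd4l (chrM:9877-10173) and mt-Nd4 (chrM:10167-11544), which share 7. Within each pair, the second gene was listed higher per kb. The level of mt-Atp6 was 5.85-fold that of mt-Atp8, and mt-Nd4 was 3.23-fold mt-Nd4l. The shared stretches are shown because reads there belong to both genes of a pair.
mt-Atp8 and mt-Atp6, chrM:7927-7969, plus strand, capitals marking the start codon of mt-Atp6: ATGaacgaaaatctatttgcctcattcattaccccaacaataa
mt-Nd4l and mt-Nd4, chrM:10144-10173, plus strand, capitals marking the bases in both genes: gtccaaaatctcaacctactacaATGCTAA
The members mt-Atp8, of 204 nt, and mt-Nd4l, of 297 nt, are the shortest of the 13. Short transcripts leave few positions for a sequenced fragment, and when an assumed fragment of 200 nt was allowed for, these transcripts under 300 nt could not be given a level. The part of length in these low values was not tested. Another overlap, of 1 base, joins mt-Atp6 to mt-Co3, and those genes were both above 13 log2 CPM per kb.

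Nuclear DNA holds copies of mitochondrial sequence, and reads from them could be assigned either way. A median of 62.8% of the 31-base stretches of a mitochondrial gene also occurs in transcripts of other annotated genes, against 5.85% for the nuclear members. Of the 11 other genes that hold at least 10% of a mitochondrial member's stretches, 6 are listed. The highest of these, at 5.16 mean log2 CPM, was Gm29216, a pseudogene of mt-Co1, which is 9.88 log2 units below mt-Co1 itself. Listed pseudogenes with at least 50% of their own stretches in members were added to their parents. This raised no mitochondrial gene by more than 0.0015 log2 units. The listed Gm13340 and Gm13341, at 0.66 and 0.93 mean log2 CPM, fell short of that bound and were not added. Reads of nuclear copies that had been assigned to the mitochondrial genes cannot be seen in this way.

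In complex I, the nuclear core subunits carry the flavin and iron-sulfur clusters or line the quinone site. Ndufs7, which holds the last iron-sulfur cluster before the quinone, was at 8.10 log2 CPM per kb. Ndufs3 was at 7.67, with 55.0% of its 31-base stretches shared with other genes. The flavin-binding Ndufv1 was at 7.56, Ndufv2 at 7.25 and Ndufs1, the largest iron-sulfur subunit, at 6.78. Their places rested on length. By mean log2 CPM, without division by length, Ndufv1 was at 8.29, Ndufs1 at 8.19 and Ndufv2 at 8.02. Ndufs8 stood apart from these core subunits. This iron-sulfur subunit was at 4.69 per kb, although the core proteins are present once each in the complex. By mean log2 CPM, Ndufs8 was at 4.70 and ranked 5180 of the listed genes, beside 7.74 for Ndufs3 and 8.07 for Ndufs7.

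The 28 accessory subunits of complex I, which surround the core and are needed for its assembly and stability, had a median of 7.33 log2 CPM per kb, beside 7.56 for the core. They ran up to 8.49, reached by Ndufb10 and Ndufb9 of the membrane arm, and 26 of the 28 were in the top 10% of listed genes. Ndufa9, which sits near the quinone site, was the lowest respiratory chain gene per kb, at 0.32, and by its mean of 0.85 log2 CPM it ranked 12046, with Cox4i2 and Cox6b2 the only members lower. Only 2.76% of its 31-base stretches occur in other genes of GENCODE M21, and which transcripts the authors' index held is not given in the sources used here. Among the accessory subunits Ndufb2, at 4.32 per kb, was the next lowest, but its level rested on the transcript chosen. Its longest coding transcript has 4371 nt around a coding sequence of 315 nt, and per kb of coding length it was at 8.11. By its mean of 6.45 log2 CPM it stood above 89.0% of listed genes. Ndufv3 and Ndufs4, the latter a subunit of the NADH-oxidising arm, followed at 5.71 and 5.91. Ndufa4l2, a hypoxia-inducible relative of Ndufa4 was at 3.57, and Ndufa4, which is now counted as a complex IV subunit, was not analysed here. Ndufb9, Ndufb2, Ndufv3 and Ndufs4 are named because their values per kb of the longest coding transcript stood out.

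In complex II, the flavin-carrying subunit Sdha was at 8.01 log2 CPM per kb and the iron-sulfur subunit Sdhb at 8.40. The membrane anchors were lower with this length, with Sdhd at 7.20 and Sdhc at 6.37. The low place of Sdhc also rested on length, because its longest coding transcript has 3171 nt and the median of its coding transcripts 815 nt. Per kb of coding length, the genes of complex II lay within 1.5-fold of each other. Sdhc was then at 9.02, Sdhb at 8.83, Sdhd at 8.56 and Sdha at 8.55. By mean log2 CPM, without division by length, Sdha was at 9.55 and Sdhd at 7.50. Sdhc at 8.04 was within 1.5-fold of Sdhb at 8.59 on that scale.

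In complex III, the 9 nuclear genes lay between 7.61 and 8.99 log2 CPM per kb (8.25 to 10.27 per kb of coding length), and all 9 were in the top 10% of listed genes. The lowest was Cyc1, cytochrome c1, and the Rieske iron-sulfur subunit Uqcrfs1 was at 7.94. The core proteins Uqcrc1 and Uqcrc2, which face the matrix and take no part in electron transfer, were at 8.29 and 7.81, 1.39-fold apart. The small subunits Uqcr10, Uqcrh, Uqcr11 and Uqcrb were at 8.25, 8.53, 8.65 and 8.99. Uqcrq, also small, was at 7.64 with this length and at 10.27 per kb of coding length. Uqcrb, the highest per kb of the longest coding transcript, shares 58.2% of its 31-base stretches with transcripts of other genes. Its level is uncertain to that extent. Against cytochrome c1, the mitochondrial partner mt-Cytb was 61.9-fold higher per kb.

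In complex IV, the nuclear genes code for subunits around the mitochondrial core. Cox4i1, a regulatory subunit that binds adenine nucleotides, was highest at 10.10 log2 CPM per kb, a rank of 92 by mean log2 CPM, and mt-Co1 was 19.8-fold above it. Cox5a and Cox5b, matrix-side subunits, were at 8.39 and 8.42 and were not different by the 1.5-fold measure. Cox6c was at 8.71, Cox7c at 8.64 and Cox7b at 7.79. Cox7a2l, a supercomplex assembly factor related to the 7a subunit, was at 6.67.

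Several complex IV subunits exist in a form used in most tissues and a form of heart and skeletal muscle, and the muscle form was listed higher per kb of the longest coding transcript in the 3 such pairs. For subunit 6a, the muscle form Cox6a2 was at 8.95 log2 CPM per kb and the ubiquitous Cox6a1 at 7.81, a 2.20-fold difference. For subunit 7a, the muscle form Cox7a1 was at 8.18 and Cox7a2 at 7.44, a 1.67-fold difference that fell under 1.5-fold per kb of coding length, where Cox7a1 less Cox7a2 was 0.20 log2 units, and without division by length, where it was 0.30. For subunit 8, Cox8b was at 8.87 and Cox8a at 7.01, a 3.62-fold difference. The ubiquitous forms still made up 31.3% of the 6a pair, 37.5% of the 7a pair and 21.6% of the 8 pair. Whole muscle at 7 days holds fibres, regenerating fibres and infiltrating cells, and their shares in each form were not tested.

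The other pairs were one-sided. Cox4i1 was 448-fold above Cox4i2, the lung and hypoxia form, which stood at 1.29 log2 CPM per kb. Cox6b1 was 235-fold above Cox6b2, the testis form, which stood at 0.67. Both low forms are close to 1 CPM, the bound of the authors' filter (CPM above 1 in at least 3 samples), with Cox6b2 at a mean of -0.11 log2 CPM. A mean of -0.11 can still hide samples above the filter. The means of listed genes went down to -4.08 log2 CPM, and 1198 genes were under 0. How the lowest of these means passed the stated filter cannot be seen here without values per sample. Cox7b2, the partner of Cox7b, was not analysed here.

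The promoters of the 7a and 8 pairs are shown, because these pairs have a muscle form and a ubiquitous form and an entry for both members in the RefSeq table (GRCm38.p6). Each is the 250 bases before the RefSeq start, 5′ to 3′ on the strand of the gene, and capitals mark the searched motifs, here CCAAT or its reverse complement and the E-box CAGCTG.
Cox7a1, muscle form, chr7:30183921-30184170, plus strand: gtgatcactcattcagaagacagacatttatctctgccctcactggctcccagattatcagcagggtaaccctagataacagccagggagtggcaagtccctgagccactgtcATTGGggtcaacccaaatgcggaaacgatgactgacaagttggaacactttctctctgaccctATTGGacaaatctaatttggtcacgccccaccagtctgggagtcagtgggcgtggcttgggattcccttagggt
Cox7a2, ubiquitous form, chr9:79759854-79760103, minus strand: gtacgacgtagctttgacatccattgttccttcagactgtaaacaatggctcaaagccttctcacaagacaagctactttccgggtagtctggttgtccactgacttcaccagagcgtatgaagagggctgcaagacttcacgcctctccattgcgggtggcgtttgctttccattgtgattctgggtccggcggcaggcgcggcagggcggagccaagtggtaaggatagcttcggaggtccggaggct
Cox8b, muscle form, chr7:140900447-140900696, minus strand: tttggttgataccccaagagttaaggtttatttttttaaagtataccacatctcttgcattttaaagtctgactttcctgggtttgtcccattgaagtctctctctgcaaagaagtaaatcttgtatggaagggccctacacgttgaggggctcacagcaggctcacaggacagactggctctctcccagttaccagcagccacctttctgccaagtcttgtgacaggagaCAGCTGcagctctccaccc
Cox8a, ubiquitous form, chr19:7217617-7217866, minus strand: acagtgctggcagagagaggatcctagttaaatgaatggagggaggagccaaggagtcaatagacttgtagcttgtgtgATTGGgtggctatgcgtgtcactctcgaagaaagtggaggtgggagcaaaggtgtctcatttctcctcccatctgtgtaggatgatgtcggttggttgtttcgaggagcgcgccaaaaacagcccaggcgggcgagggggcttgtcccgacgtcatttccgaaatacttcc
The muscle forms hold fewer CpG dinucleotides. Cox7a1 has 4 and Cox8b 1, against 14 for Cox7a2 and 11 for Cox8a, while the GC content ran from 47.2% (Cox8b) to 54.8% (Cox7a2). Cox7a1 holds 2 CCAAT boxes, Cox8a 1, Cox8b 1 E-box and Cox7a2 none of the searched motifs. A match of letters is not a binding site, and these 4 windows are a description only.

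In complex V, the F1 head, where ATP is made, had a median of 9.31 log2 CPM per kb. The c ring had a lower median with this length, 6.67, but one within 1.5-fold of the head per kb of coding length, 10.20 against 10.04. The 3 c ring genes code for the same mature protein, and with this length their levels summed on the linear scale came to 9.77 log2 CPM per kb. Per kb of coding length, Atp5g1 at 10.20 and Atp5g3 at 10.33 each lay above that sum. The sum leaves out Gm10175, the pseudogene of Atp5g2 described below. The catalytic beta subunit Atp5b was at 10.17 and the alpha subunit Atp5a1, with which it alternates in the ring, at 9.35. Their ranks by mean log2 CPM were 41 and 45. The epsilon subunit Atp5e was at 9.31, the central stalk gamma subunit Atp5c1 at 8.05 and the delta subunit Atp5d at 7.65. The head holds several copies each of alpha and beta and a single gamma, delta and epsilon. Per kb, Atp5b was 4.36-fold and Atp5a1 2.47-fold above Atp5c1, and Atp5b was 5.74-fold above Atp5d. Atp5e was 1.82-fold below Atp5b with this length, above it per kb of coding length (10.75 against 10.45), and at 8.07 against 11.11 mean log2 CPM without division.

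The peripheral stalk holds the head still against the rotor. Its 4 genes were Atp5f1 at 8.32, Atp5h at 8.72, Atp5j at 8.88 and Atp5o at 8.95 log2 CPM per kb. Atp5f1 and Atp5o lay more than 1.5-fold apart, and the order of the stalk genes rested on length. Per kb of coding length, Atp5h was lowest at 9.2 and Atp5j highest at 10.2. By mean log2 CPM, Atp5f1 was the highest of them, with a rank of 155, and Atp5h the lowest, with a rank of 326. Of the small membrane subunits, Atp5j2 was at 7.76 and Atp5l at 8.68, with Atp5k between them and within 1.5-fold of Atp5j2. This order also rested on length. Per kb of coding length, Atp5j2 was at 9.61, Atp5l at 9.49 and Atp5k at 8.80. By mean log2 CPM, Atp5l was at 7.80, Atp5j2 at 7.69 and Atp5k at 6.57. Of the 31-base stretches, 85.4% of those of Atp5l and 59.4% of those of Atp5h occur in other genes, which leaves the levels of both genes uncertain. Atp5s and Atp5sl, which code for coupling factor B and for a protein needed to assemble complex I and are not structural subunits, were low, at 1.31 and 3.50.

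The c subunit, which forms the rotor ring, is coded by 3 nuclear genes whose mature proteins are the same. Per kb of the longest coding transcript, Atp5g3 was at 9.56, Atp5g1 at 6.67 and Atp5g2 at 4.39 log2 CPM, so that Atp5g3 held 86.0% of the sum, Atp5g1 11.6% and Atp5g2 2.40%. The place of Atp5g1 rested on length. Its longest coding transcript has 4715 nt, the longest of any nuclear member, around a coding sequence of 408 nt. Per kb of coding length Atp5g1 was at 10.20 and Atp5g3 at 10.33, and by mean log2 CPM they were at 8.91 and 9.09, a difference under 1.5-fold on both scales. Atp5g2 was the lowest of the c subunit genes under each length used, with 5.18 per kb of coding length.

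The value of Atp5g2 cannot be separated from that of a pseudogene. Gm10175, a transcribed processed pseudogene of 645 nt, was listed at 7.60 mean log2 CPM, 3.62 above the 3.99 of Atp5g2. All of its 31-base stretches (100%) occur in transcripts of Atp5g2. With the reads of Gm10175 counted as Atp5g2, the gene rose to 7.72 mean log2 CPM and 8.13 per kb, and the level of Atp5g1 less that of Atp5g2 was then -1.46 per kb instead of 2.28. Gm10175 was looked at after its value was seen. The only other listed pseudogene of a nuclear member, Gm10012 of Cox7c, was at -1.06 mean log2 CPM beside 8.14 for Cox7c. In all, 4 nuclear members (Ndufs3, Uqcrb, Atp5h and Atp5l) share at least 50% of their 31-base stretches with other genes, and 40 share under 5%.

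Transcription of nuclear respiratory genes is known to be driven in part by NRF1, by ETS factors such as GABPA and by YY1. Promoter windows of 250 bases were searched on both strands for the 67 nuclear members with a RefSeq entry, beside 27025 genes in all. The NRF1 motif GCGCATGCG was in 6 members (8.96%), against 1.64% of all genes, and the ETS motif CCGGAAG in 12 (17.9%), against 7.83%. The YY1 motif AAGATGGCG was in 2 members (2.99%), against 0.710%. Counting any of the 3, 17 members held a motif and 50 held none.

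The genes with the NRF1 motif were Ndufa8, Ndufa11, Cox6a1, Atp5l, Atp5k and Atp5g2, and those with the YY1 motif Atp5j and Atp5sl. Cox6a1, the ubiquitous form of subunit 6a, held NRF1, ETS and CCAAT motifs together. The ETS motif was found in genes of all 5 complexes. Other motifs were also counted. The E-box CAGCTG was in 6 members (8.96%), against 14.7%, the TATAAA box in 5 (7.46%), against 14.3%, and the MEF2 site in 0, against 0.592%. CCAAT was in 30 members (44.8%), against 37.5%. A MEF2 site can contain TATAAA, none of the other strings of letters contains another, and these shares, several of them from few members, were not tested.

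Transcripts of genes that build the complexes, carry electrons between them or regulate their genes had a lower median than those of the subunits. Of a list of 54 such genes, 50 were listed, with a median of 3.61 log2 CPM per kb, between that of all genes, 2.28, and that of the nuclear subunits, 7.66. Of the 50, 9 were in the top 10% of genes per kb, 5 were in it without division by length, and 6 lay under the median of all genes per kb. Their transcripts had a median of 2371 nt, against 891.5 nt for the nuclear subunits. Without division the medians were 4.86 and 7.75 log2 CPM. The list also holds Ndufab1, a complex I subunit outside the symbol rule, at 5.46 per kb. The highest was the complex III assembly factor Uqcc2 at 7.65 and the lowest the complex II assembly factor Sdhaf2 at 0.75.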

How the data were processed

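RNA of 3 WT and 3 GATA-1 mutant muscles was sequenced as poly(A)-selected, paired-end libraries with ERCC spike-in. According to the methods, the authors pseudoaligned reads with kallisto, assigned genes with ensembldb, computed CPM with edgeR, filtered out genes unless CPM exceeded 1 in 3 or more samples, took logs with TMM normalization and fitted limma. The submitters' processing notes name GRCm39 and mm39, and the transcript index is not given in the sources used here. The deposited log2 value used is the authors' mean log2 CPM per gene over all samples. The 5 other columns hold the authors' own comparison of the genotypes (fold change, moderated t, p-values, log-odds) and were not used. Values per sample were not analysed here, so the planned limma test of the genotypes was not run, the depth is unknown, and the number of samples limits the precision.

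Symbols were matched to GENCODE M21 (GRCm38), 486 of them through older symbols, which gave a length for 99.5% of the 14015 genes with a symbol. Of the members, 94 matched directly and Atp5sl through an older symbol. Sequence sharing used 31-base words of a member's transcripts found in those of other genes. Shares of the summed CPM used 2 to the power of the mean log2 CPM. Python 3.11.15, numpy 2.4.6 and pandas 2.3.3 were used, and the calculation of sequence sharing was tested on simulated sequences. Genes were named as the highest and lowest of each complex per kb, the core subunits and the paralogs, and exceptions are given as such. A member that the rule names is not reported here. The members and lists were chosen with earlier results of these data known.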

Additional observations from a re-analysis of the deposited data

How the results depend on the processing

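Of 104 values recomputed for 16 results under up to 8 alternatives, 82 moved by less than 1.5 times. No alternative brought a median of the mitochondrial genes down to that of the nuclear genes. Per kb of coding length, the nuclear median was 8.67 and the gap from the mitochondrial to the nuclear median 4.02, and the nuclear medians of complexes I to V were 8.29, 8.70, 9.42, 9.31 and 9.38. With the median length of coding transcripts, complex II was at 8.37, and without division by length complex II was at 8.31 and complex IV at 7.58. With an assumed fragment taken off each transcript, complex V was at 9.11 and the mitochondrial median, over 11 genes, at 13.57. The level of Cox8a less that of Cox8b was -1.23 per kb of coding length and -1.25 without division. The least stable values were those of the c subunit. Atp5g1 less Atp5g2 was 5.03 per kb of coding length, 2.95 with the median length, 4.92 without division and -1.46 with pseudogene copies added, a reversal. Atp5g1 less Atp5g3 was -0.13, -2.08 and -0.18 under the first 3 of these, and Atp5g2 less Atp5g3 was -1.43 with copies added. The fragment length and the pseudogene copies were chosen after seeing the data. No paired analysis was possible because no value per sample was analysed, and for the same reason the genotype test, the fits leaving out a sample, the other normalization and the other pseudocount were not run. Neither the spread between samples nor the depth is known here, so no level carries an error.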

Other observations

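A pair of brown fat genes outside the respiratory chain was listed in the injured muscle. Ucp1, which uncouples the proton gradient from ATP synthase, was at 3.34 mean log2 CPM, above 38.4% of listed genes, and Cidea, a lipid droplet protein, was at 4.55, above 60.2%. Among regulators of respiratory genes, Esrra was at 6.16, Tfam, which packages mitochondrial DNA, at 5.42, Gabpa at 5.31, Ppargc1a at 4.56 and Nrf1 at 4.05 mean log2 CPM, and the median of all listed genes was 4.03. Cycs, the cytochrome c that carries electrons from complex III to complex IV, was at 8.34, within the range of the nuclear subunits. These genes were named after their values were seen.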
